A study of Mus musculus with 12 samples.

Results

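The antioxidant and glutathione genes examined here were 33 mouse genes, taken by their symbol from a bulk RNA-seq. table of 47643 genes. They comprised NRF2 and KEAP1 with known NRF2 targets, the enzymes of glutathione synthesis and reduction, glutathione transferases, peroxiredoxins with sulfiredoxin, thioredoxins, glutaredoxin and Park7, superoxide dismutases with catalase, and carbonyl and biliverdin reductases. Selenoproteins, such as the glutathione peroxidases and thioredoxin reductases, were not part of the group. Of the 33 genes, 32 passed the filter on low counts and were tested among 13681 genes.

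All libraries came from osteoclasts harvested at day 3, which had been grown from monocytes of the bone marrow (BMMs) with M-CSF and RANKL. The labels give these as 5 and 10 ng/µL, whereas the methods of the study use ng/mL and another amount of M-CSF from day 0. The BMMs were those of WT mice of the BALB/c strain. Unstimulated osteoclasts (OCsCtr) received neither eosinophils nor their supernatant. In the OCsEo group, sorted eosinophils of IL-5tg/4get mice, which overproduce IL-5 and are rich in eosinophils, were added at 1 BMM to 2 eosinophils. In the OCsEoS group, the BMMs received a 1:2 dilution of eosinophil supernatant. The cultures met both stimuli on day 0, were washed after 48 h and went on, like OCsCtr, in fresh osteoclast medium. Each group held 4 libraries, which the methods of the study call biological replicates, while the labels do not name the mouse of each library. The comparisons ask how the mRNA of osteoclasts changes after contact with eosinophils or with their supernatant. No library received supernatant of other cells as a control.

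Reactive oxygen species are a signal in osteoclast differentiation downstream of RANKL, and antioxidant genes set how long such oxidants last. The transcription factor NRF2 (Nfe2l2) is held in the cytoplasm and handed to the proteasome by KEAP1, and oxidants or electrophiles that modify KEAP1 release it to bind antioxidant response elements (AREs). Its targets make and recycle glutathione, the main small thiol of the cell, which transferases attach to reactive compounds. Peroxiredoxins remove hydrogen peroxide with electrons from thioredoxin, and sulfiredoxin repairs them when they are overoxidized.

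Total counts ranged from 27837530 to 40327869 per library, so that 3 counts, the floor of detection, stood for 0.0769 to 0.107 counts per 1000000 (CPM). This floor and the errors given below cover counting and library spread only. The 10 osteoclast markers were all detected in every library, and 8 of them were called lower in each stimulated group. Their summed level was 28358 to 34496 CPM in OCsCtr, 18093 to 23205 CPM in OCsEo and 14942 to 22171 CPM in OCsEoS. In bulk samples, fewer cells of a type and less RNA per cell cannot be told apart. Mitochondrial genes took 0.487 to 1.43% of the counts, with OCsCtr library 1 the highest.

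Because several of these genes are known to be reached through AREs, the letters of their promoters are shown first, as given by RefSeq for GRCm38.p6 in windows from 250 bases before to 50 bases after a gene's start. Of the 33 genes, 28 had such a window, and Hmox1, Gclc, Gsr, Gsta4 and Prdx6 did not. The ARE core was searched as TGACNNNGC on both strands and was present in 7 of the 28 genes (Blvra, Gclm, Mgst1, Nfe2l2, Prdx1, Sod1 and Srxn1), against 13.99% of 27025 genes with a window. The AP-1 motif, TGANTCA on both strands, was present in 4 of the 28 genes (Glrx, Gstp1, Prdx1 and Srxn1), against 8.973% of the genes. In Prdx1 and in no other member the ARE core and AP-1 matches overlapped, since the ARE core match GCTGAGTCA holds the AP-1 match TGAGTCA. The following lines give the 250 bases before the start of Mgst1, Gclm and Prdx1, which hold an ARE core, and of Gstm1 and Cbr2, which differed most between both stimuli and whose windows held neither motif. Capitals mark the ARE core, written 5′ to 3′ on the strand of the gene.
Mgst1 (chr6:138140277-138140526, plus strand): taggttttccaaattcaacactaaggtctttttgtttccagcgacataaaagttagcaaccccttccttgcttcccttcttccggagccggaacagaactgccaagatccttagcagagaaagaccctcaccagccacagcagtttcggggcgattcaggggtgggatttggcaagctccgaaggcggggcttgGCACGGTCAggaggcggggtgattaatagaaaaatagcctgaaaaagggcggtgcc
Gclm (chr3:122245307-122245556, plus strand): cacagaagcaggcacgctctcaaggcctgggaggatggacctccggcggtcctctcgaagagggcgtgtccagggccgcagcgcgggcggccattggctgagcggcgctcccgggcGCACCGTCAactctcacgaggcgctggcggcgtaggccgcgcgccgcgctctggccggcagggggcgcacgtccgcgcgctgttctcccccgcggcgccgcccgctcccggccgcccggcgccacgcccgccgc
Prdx1 (chr4:116685349-116685598, plus strand): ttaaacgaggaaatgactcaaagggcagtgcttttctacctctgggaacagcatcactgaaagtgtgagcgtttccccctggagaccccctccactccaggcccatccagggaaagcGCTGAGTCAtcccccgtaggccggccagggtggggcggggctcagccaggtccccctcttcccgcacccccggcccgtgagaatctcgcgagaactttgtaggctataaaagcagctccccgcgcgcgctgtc
Gstm1 (chr3:108017974-108018223, minus strand): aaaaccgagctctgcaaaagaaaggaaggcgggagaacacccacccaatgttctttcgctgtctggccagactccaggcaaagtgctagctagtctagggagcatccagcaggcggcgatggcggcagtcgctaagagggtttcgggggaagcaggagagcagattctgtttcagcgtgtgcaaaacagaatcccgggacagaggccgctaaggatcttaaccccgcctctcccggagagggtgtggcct
Cbr2 (chr11:120732022-120732271, minus strand): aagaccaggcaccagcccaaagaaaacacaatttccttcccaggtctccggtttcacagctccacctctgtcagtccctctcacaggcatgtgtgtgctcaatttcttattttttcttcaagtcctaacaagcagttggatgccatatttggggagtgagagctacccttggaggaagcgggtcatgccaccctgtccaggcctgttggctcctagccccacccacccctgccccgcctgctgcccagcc
The ARE core began 56 bases before the start in Mgst1, 134 bases before it in Gclm and 133 bases before it in Prdx1. The gene models of the table begin inside the printed stretch in Mgst1, Prdx1 and Cbr2, and a further window of Mgst1 and one of Gstm1 held neither motif. A match of letters is a description and not a binding site, and binding was not measured. Among the ARE core genes not printed, Sod1 was higher at the adjusted p in both comparisons and Srxn1 with supernatant. Nfe2l2 and Blvra passed neither threshold, at log2 fold changes of -0.02 and 0.14 with eosinophils and -0.14 and 0.01 with supernatant. A link between motif and change was not tested, and sites outside the windows were not searched.

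Per length of gene, the levels of the 33 genes in OCsCtr spanned from 936 CPM per kb for Sod1, the cytosolic superoxide dismutase, to 0.0994 CPM per kb for Gsta4. Thioredoxin (Txn1, 756 CPM per kb) and peroxiredoxin 1 (Prdx1, 446 CPM per kb) followed Sod1, and the 4 libraries of each of these genes did not overlap with those of its neighbor in the order. Prdx2 at 231, Mgst3 at 209 and Prdx3 at 192 CPM per kb came next, and the libraries of each overlapped with those of the next in the order. At the low end stood Keap1 (6.03 CPM per kb), Mgst1 (6.29), Cbr2 (2.80) and the cystine transporter subunit Slc7a11 (0.421). The level of Sod1 rests on the gene length of 646 bases in the table, whereas its merged exons in the GENCODE annotation used here span 3970 bases. Its place in the order thus depends on the length used. The same holds for Glrx (1345 against 5494 bases), Sod2 (3824 against 10008 bases) and Gstp1 (757 against 1548 bases). Gsta4, which conjugates products of lipid peroxidation, had 0 to 10 counts per library and was not tested. Members had a median level of 151 CPM, against 15.0 CPM for all genes tested, and 30 of the 32 lay above that median.

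**Figure D1:**
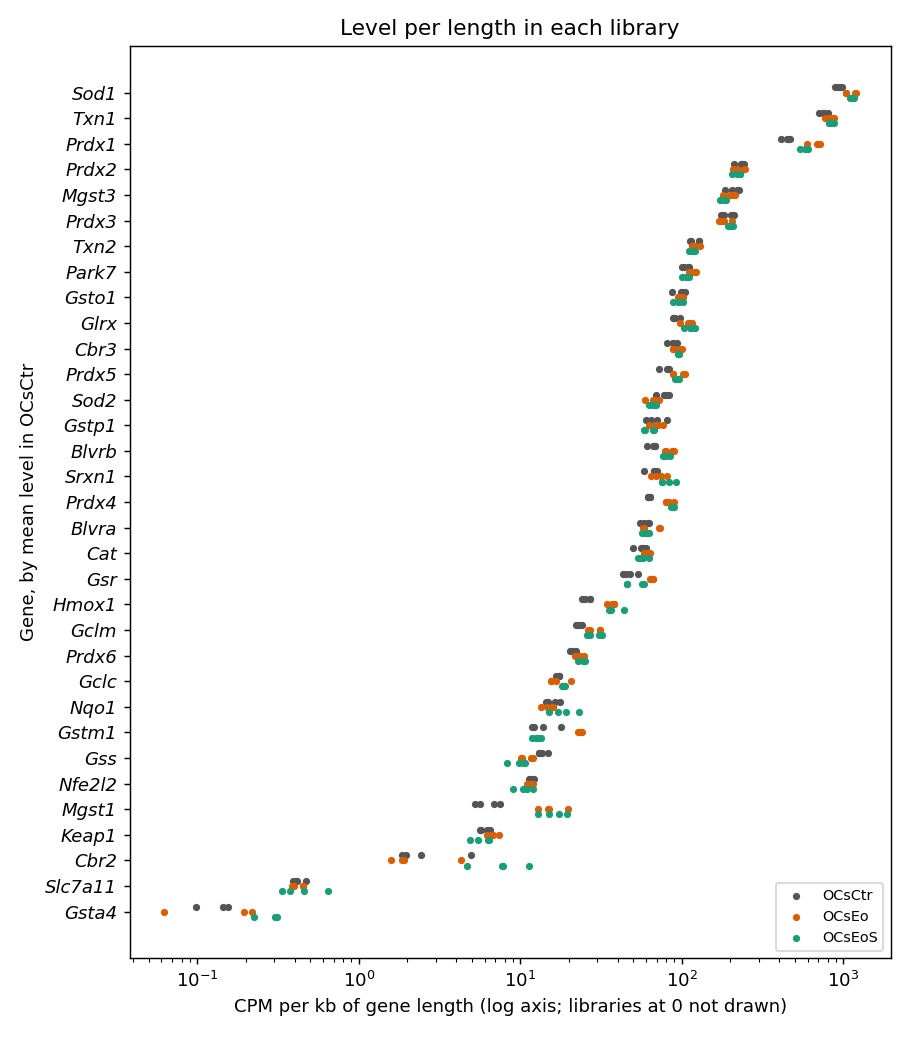
Level of the 33 genes in CPM per kb of gene length on a log axis, ordered by the OCsCtr mean, with 1 point per library and 4 libraries per group (libraries at 0 are not drawn). By the gene lengths of the table, Sod1, Txn1 and Prdx1 are highest and Gsta4 is lowest. OCsCtr stands apart from both stimulated groups for Mgst1, as does OCsEo from both other groups for Gstm1.

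A gene was called at a Benjamini-Hochberg adjusted p under 0.05 in edgeR's quasi-likelihood test and an absolute log2 fold change over 0.5. Upon stimulation with eosinophils, 4 of the 32 genes were upregulated, namely Mgst1, Gstm1, Prdx1 and Hmox1, which is 12.5% of them against 3.22% of all genes called higher. None was downregulated, against 2.58% of all genes, and DESeq2 also called none lower. At the adjusted p alone, 11 were higher (34.4% of members, against 9.4% of all genes) and 2 were lower (against 8.59%). At an unadjusted p under 0.05 there were 13 and 2, while 29.7% of all genes passed in either direction. With eosinophil supernatant, 3 genes were upregulated, Cbr2, Mgst1 and Hmox1, which is 9.38% of members against 3.6% of all genes, and none was downregulated, against 4.1%, also with DESeq2. At the adjusted p alone, 13 were higher (40.6%, against 12.1%) and 3 were lower (against 11.4%). At an unadjusted p under 0.05 there were again 13 and 3, while 34.2% of all genes passed in either direction. The median log2 fold change of the 32 genes was 0.13 with eosinophils and 0.12 with supernatant, against -0.01 over all genes in both comparisons. Without regard to sign, the median change of members was smaller than that of all genes. It was 0.14 against 0.21 with eosinophils and 0.17 against 0.24 with supernatant. The 5 called genes are protein-coding and lie in GRCm38 at chr6:138140316-138156755 (Mgst1), chr3:108012255-108017973 (Gstm1), chr4:116685544-116700822 (Prdx1), chr8:75093591-75100596 (Hmox1) and chr11:120729489-120732114 (Cbr2). A positive fold change was fitted for 21 of the 32 genes with eosinophils and for 22 with supernatant, against 49.1% and 49.4% of all genes. Both comparisons share the 4 OCsCtr libraries. The shares of all genes were not matched for level, and members had a median of 151 CPM against 15.0 CPM. The list was chosen with earlier results of these data known.

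**Figure D2:**
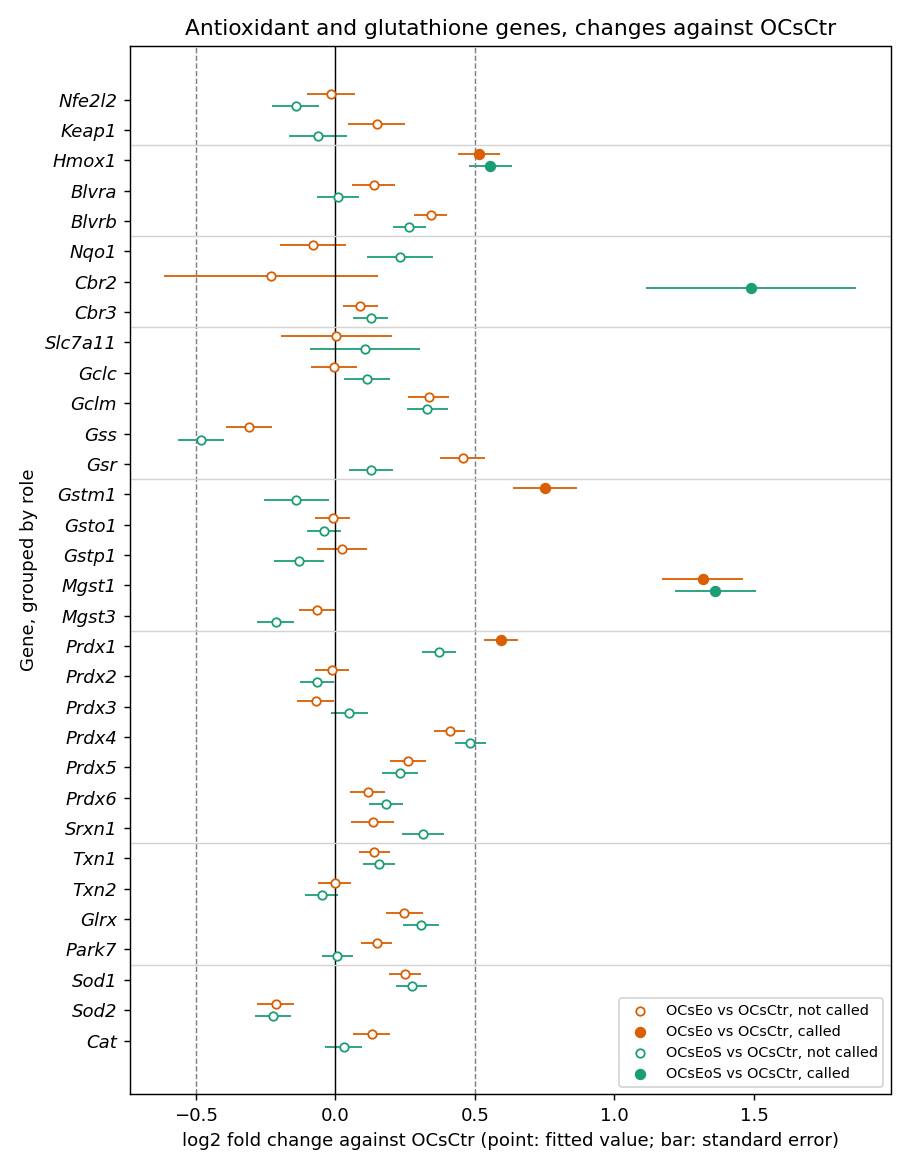
Log2 fold change against OCsCtr (x axis; point, fitted value; bar, standard error) of the 32 tested genes, in 8 blocks by role, for OCsEo (orange) and OCsEoS (green), with filled points where a gene was called and dashed lines at a log2 fold change of 0.5 in each direction. Mgst1 lies at 1.32 and 1.36, Gstm1 is called with eosinophils alone and Cbr2 with supernatant alone, and most other genes lie within the dashed lines.

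The switch of the pathway itself did not pass the test. Nfe2l2 was at 43.6, 42.9, 45.0 and 45.9 CPM in the OCsCtr libraries, at 43.9, 45.7, 41.8 and 44.3 CPM in OCsEo and at 41.9, 45.4, 39.4 and 34.1 CPM in OCsEoS. The groups overlapped, with a log2 fold change of -0.02 (SE 0.09) with eosinophils and -0.14 (SE 0.09) with supernatant. Keap1, the adaptor that marks NRF2 for degradation, was at 30.3, 26.8, 26.2 and 29.1 CPM in OCsCtr, at 31.6, 29.8, 29.1 and 34.2 CPM in OCsEo and at 22.8, 29.3, 25.5 and 30.0 CPM in OCsEoS. It likewise overlapped between groups, with log2 fold changes of 0.15 (SE 0.10) and -0.06 (SE 0.10). RNA levels do not report the amount or location of the NRF2 protein.

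Among the genes of heme and bile pigment breakdown, heme oxygenase 1 (Hmox1), which opens the heme ring and yields biliverdin, carbon monoxide and iron, was upregulated by both stimuli. Its level was 58.1, 54.4, 58.1 and 52.1 CPM in the OCsCtr libraries, 79.3, 74.6, 82.2 and 81.9 CPM in OCsEo and 95.3, 76.1, 77.9 and 78.2 CPM in OCsEoS. No stimulated library was as low as any OCsCtr library, and OCsEoS library 1 was the highest of all. The fold was 1.43 with eosinophils (log2 0.51, SE 0.08, adjusted p = 4.2e-05) and 1.47 with supernatant (log2 0.56, SE 0.08, adjusted p = 1.2e-05). Both values lie just past the threshold of 0.5. Without OCsCtr library 4, OCsEo library 3 or OCsEo library 4 the log2 value with eosinophils was 0.48, 0.496 or 0.4997, and without OCsEoS library 1 that with supernatant was 0.48, so that the call was lost on size, while the adjusted p stayed under 0.05 in each. Biliverdin reductase B (Blvrb), which reduces biliverdin and flavins, was higher at the adjusted p alone, at 170 to 191 CPM in OCsCtr, 219 to 247 CPM in OCsEo and 211 to 234 CPM in OCsEoS (log2 0.34 and 0.26). Blvra, the main reductase of biliverdin in the adult, had log2 fold changes of 0.14 and 0.01.

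Of the 3 quinone and carbonyl reductases, Cbr2 alone was called. Carbonyl reductase 2 (Cbr2) was at 2.60, 2.46, 3.24 and 6.56 CPM in OCsCtr, at 2.51, 2.10, 2.46 and 5.72 CPM in OCsEo and at 15.0, 10.2, 10.4 and 6.24 CPM in OCsEoS. Library 4 was the highest of OCsCtr and of OCsEo and the lowest of OCsEoS, so that OCsEoS library 4 fell below OCsCtr library 4 while the other OCsEoS libraries lay above all OCsCtr libraries. Cbr2 was upregulated 2.81-fold with supernatant (log2 1.49, SE 0.38, adjusted p = 0.0098), with a log2 value of 1.27 to 2.09 over all alternatives. With eosinophils its log2 fold change was -0.23 (SE 0.38, adjusted p = 0.76). Nqo1, which reduces quinones by 2 electrons and is often read as an NRF2 target, was at 22.5 to 27.3 CPM in OCsCtr, 20.9 to 24.7 CPM in OCsEo and 23.4 to 35.6 CPM in OCsEoS (log2 -0.08 and 0.23, adjusted p = 0.72 and 0.17). Cbr3 had log2 fold changes of 0.09 and 0.13 and did not pass the test.

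The 8 macrophage markers moved in part with Cbr2. With supernatant 4 of them, Adgre1 and the complement genes C1qa, C1qb and C1qc, were called higher and Csf1r lower, while with eosinophils none was called. The median log2 fold change of the 8 markers was 0.43 with eosinophils, where Cbr2 was at -0.23, and 0.68 with supernatant. In the direct comparison of both stimuli none of the 8 was called. In C1qb the OCsCtr libraries were at 4.54, 2.34, 2.36 and 6.31 CPM, the OCsEo libraries at 11.3, 4.20, 5.59 and 9.35 CPM and the OCsEoS libraries at 21.5, 10.1, 11.4 and 5.16 CPM, so that library 1 was the highest and library 4 the lowest of OCsEoS, as for Cbr2, while OCsEo peaked in library 1 and not in library 4. Over the 8 markers, the highest library was the same as for Cbr2 in 8 of 8 in OCsCtr, in 5 in OCsEo and in 6 in OCsEoS. The lowest library was the same as for Cbr2 in 5, 1 and 5 of the 8, and in OCsEoS it was library 2 for C1qa and library 3 for Mrc1 and Mertk. A low OCsEoS library 4 was not particular to macrophage markers. It was also the lowest for the osteoclast markers Acp5 (3088 CPM), Mmp9 (2884 CPM) and Itgb3 (219 CPM), which were highest in library 2. Dcstamp was lowest in library 1 (903 CPM). The share of all genes with the order of Cbr2 was not tested. The log2 fold change with supernatant was 1.39 for C1qa, 1.63 for C1qb and 1.40 for C1qc. The summed level of the 8 markers, which Csf1r and Cd68 dominate, was 2171 to 2473 CPM in OCsCtr, 1907 to 2270 CPM in OCsEo and 1697 to 2088 CPM in OCsEoS. Their part in the Cbr2 result was not tested.

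**Figure D3:**
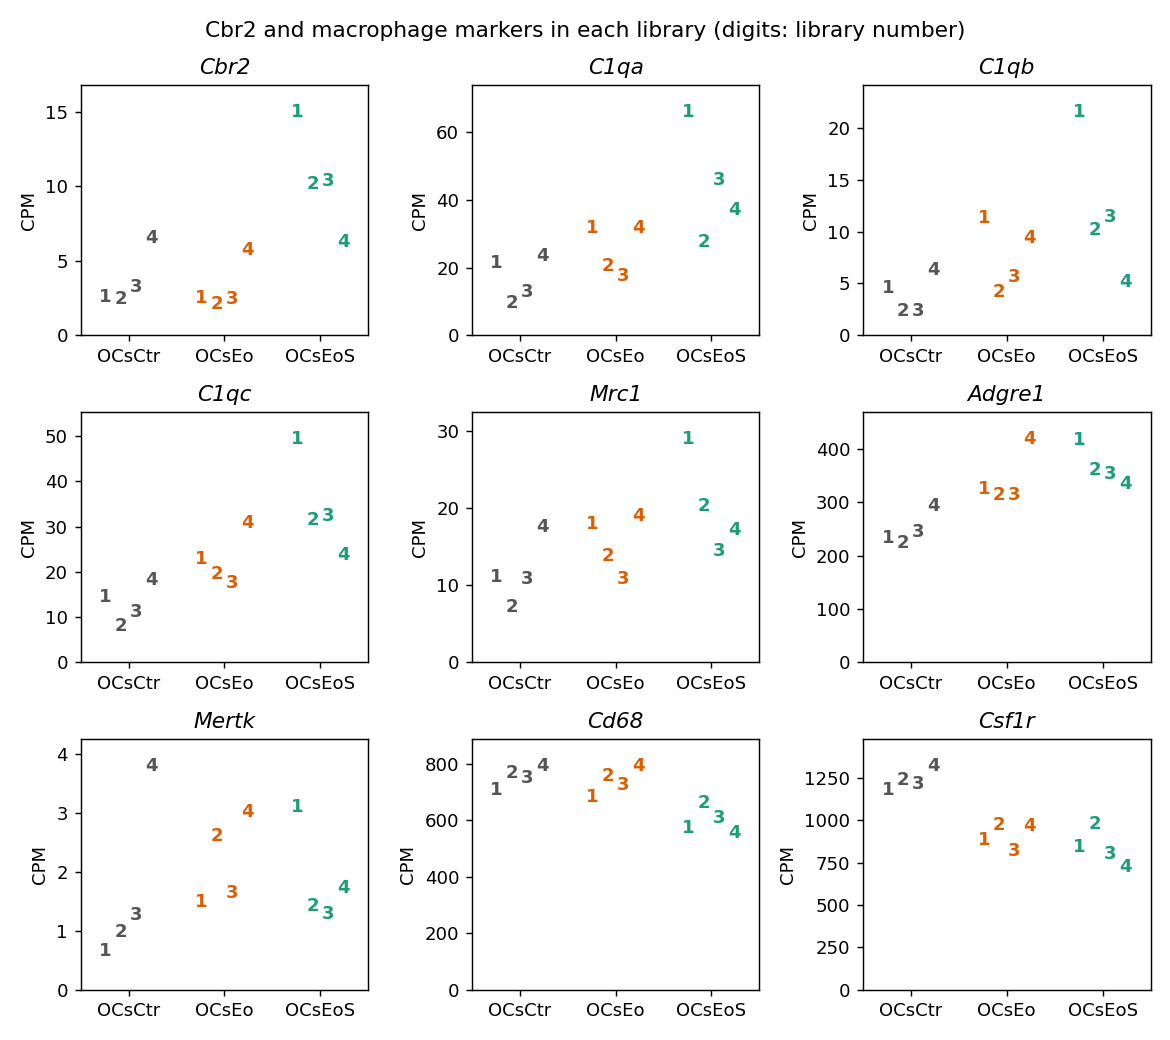
CPM of Cbr2 and of 8 macrophage markers in each library, with the digit giving the library number and the groups on the x axis. Cbr2 reaches 15.0 CPM in OCsEoS library 1, which is also the highest OCsEoS library for 6 of the 8 markers, but not for Cd68 and Csf1r.

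None of the 5 genes of cystine uptake and glutathione synthesis and reduction was called at both thresholds, while Gclm and Gsr were higher and Gss was lower at the adjusted p alone. Glutamate-cysteine ligase, which makes the rate-limiting step, is built from the catalytic subunit Gclc and the modifier subunit Gclm. Gclm was at 142, 146, 152 and 138 CPM in OCsCtr, at 196, 171, 197 and 166 CPM in OCsEo and at 193, 169, 164 and 202 CPM in OCsEoS. All stimulated libraries lay above all OCsCtr libraries, and the log2 fold change was 0.33 (SE 0.07) in both comparisons, past the adjusted p (0.0020 and 0.0016) and under the fold threshold. Of the exon bases of Gclm, 8.58% overlap other genes. Of its 50-base words, 3.92% also occur in transcripts of other genes, of which Ppia, Gm10123 and Gm6061 share the most. Gm10123 stood at 957, 1220 and 1197 CPM on average in OCsCtr, OCsEo and OCsEoS, with log2 fold changes of 0.35 (SE 0.30) and 0.32 (SE 0.30), and its part in the Gclm values was not tested. Gclc stayed under both thresholds, with log2 values of -0.00 and 0.11.

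Glutathione synthetase (Gss), which adds glycine to complete the tripeptide, was at 77.0, 81.0, 87.6 and 76.8 CPM in OCsCtr, at 60.6, 69.3, 59.4 and 71.0 CPM in OCsEo and at 58.1, 62.8, 61.2 and 49.0 CPM in OCsEoS. Every stimulated library was below every OCsCtr library. Its log2 fold change was -0.31 (SE 0.08, adjusted p = 0.010) with eosinophils and -0.48 (SE 0.08, adjusted p = 1.6e-04) with supernatant, and the latter passed the fold threshold when OCsCtr library 1 or 4 or OCsEoS library 2 or 3 was left out (-0.50 to -0.52). Of the exon bases of Gss, 18.6% overlap genes of the opposite strand, chiefly Acss2, whose log2 fold changes were 0.05 and 0.17. The library kit does not mark strand, so strand cannot separate the reads of the overlap. How such reads were counted is not given in the sources used here.

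Glutathione reductase (Gsr), which returns oxidized glutathione to its reduced form with NADPH, was at 119, 124, 132 and 148 CPM in OCsCtr, at 183, 176, 174 and 183 CPM in OCsEo and at 161, 157, 126 and 126 CPM in OCsEoS. The OCsEo libraries lay above all the others, and the OCsEoS libraries overlapped with OCsCtr. The log2 fold change was 0.46 with eosinophils (SE 0.08, adjusted p = 2.6e-04), which became 0.52 and a call without OCsCtr library 4, and 0.13 with supernatant (SE 0.08, adjusted p = 0.28). Slc7a11, which imports cystine for glutathione synthesis, was at 5.86, 5.87 and 6.31 CPM on average in OCsCtr, OCsEo and OCsEoS and showed log2 fold changes of 0.00 and 0.11 (SE 0.20 each).

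The glutathione transferases held the largest change with eosinophils among the 32 genes. Microsomal glutathione transferase 1 (Mgst1), a membrane enzyme that conjugates glutathione and reduces lipid peroxides, was at 15.1, 10.5, 11.3 and 13.8 CPM in OCsCtr, at 39.8, 26.0, 30.4 and 29.7 CPM in OCsEo and at 39.0, 26.0, 34.7 and 30.1 CPM in OCsEoS. The lowest stimulated library stood at 26.0 CPM and the highest OCsCtr library at 15.1 CPM. The fold was 2.49 with eosinophils (log2 1.32, SE 0.14, adjusted p = 1.0e-06) and 2.57 with supernatant (log2 1.36, SE 0.15, adjusted p = 8.1e-07). Over all alternatives the log2 value stayed between 1.18 and 1.46 in both comparisons, and Mgst1 was also called when 0.5 served as the null value of the test, as no other member was.

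The cytosolic transferase Gstm1 was at 20.3, 17.4, 18.0 and 26.3 CPM in OCsCtr, at 35.1, 35.5, 33.4 and 34.3 CPM in OCsEo and at 18.5, 18.8, 19.8 and 17.3 CPM in OCsEoS. OCsEo stood above both other groups in every library, while OCsEoS and OCsCtr overlapped. With eosinophils Gstm1 was upregulated 1.68-fold (log2 0.75, SE 0.12, adjusted p = 6.1e-05), and with supernatant the log2 value was -0.14 (SE 0.12, adjusted p = 0.44). Of the 50-base words of its transcripts, 18.9% also occur in transcripts of other genes, of which Gstm2-ps1, Gstm3 and Gm8834 share the most. In the table Gstm2-ps1 was at 0.327 to 0.592 CPM on average and Gstm3 was at 0. The other transferases Gsto1, Gstp1 and Mgst3 had log2 fold changes of -0.06 to 0.02 with eosinophils and -0.21 to -0.04 with supernatant, and Mgst3 was lower with supernatant at the adjusted p alone (0.019). Gstp1 shares 33.7% of its 50-base words with Gstp2 and a pseudogene, so its counts are less certain.

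**Figure D4:**
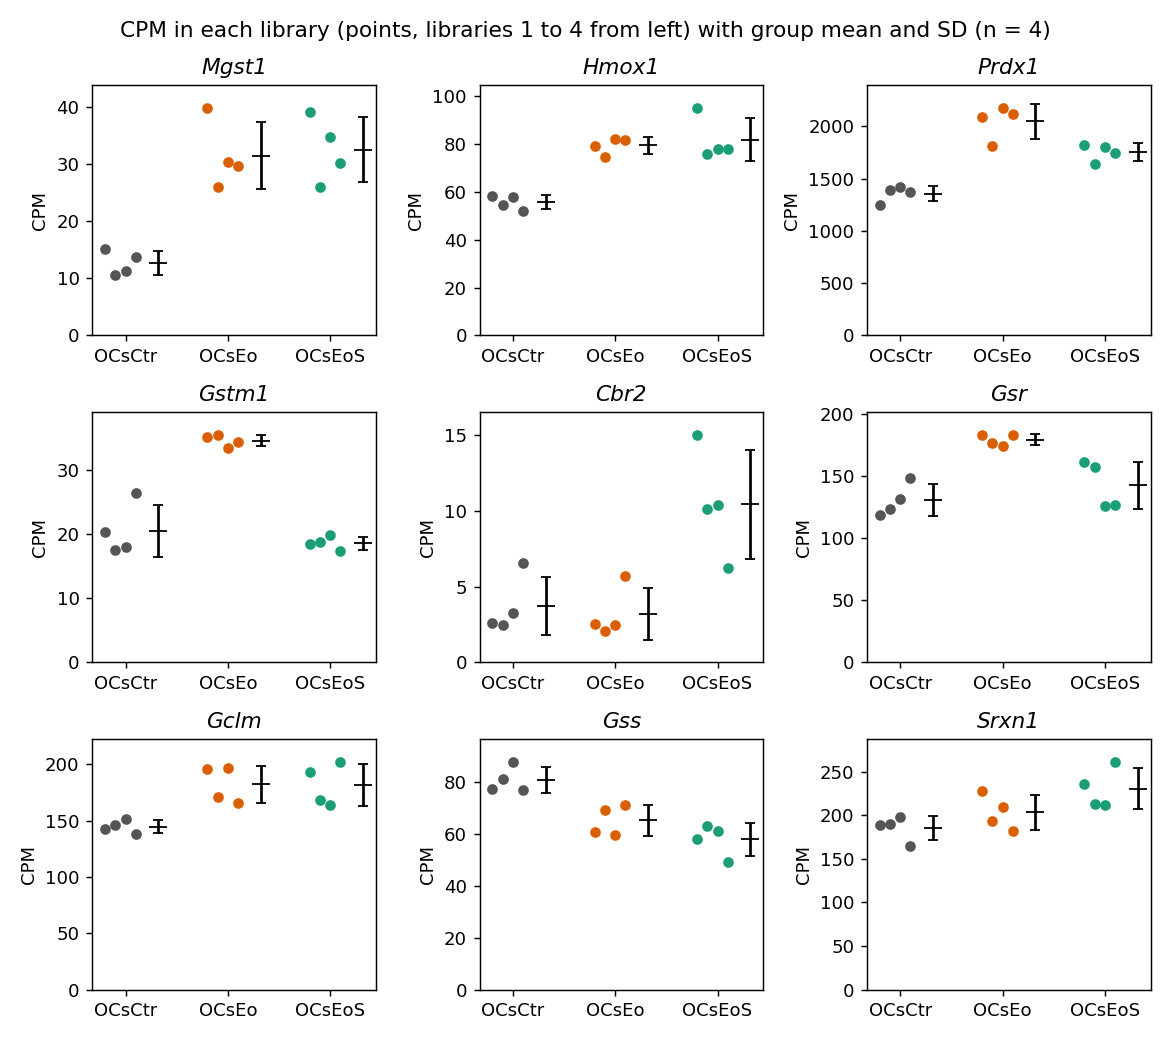
CPM of 9 antioxidant and glutathione genes in each of the 12 libraries (points, libraries 1 to 4 from left in each group), with the group mean and SD (n = 4) at the right of each group and axes from 0. Mgst1, Hmox1, Prdx1 and Gclm are higher in both stimulated groups, Gstm1 and Gsr stand out in OCsEo, Cbr2 in OCsEoS, and Gss is lower in both.

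The peroxiredoxins were led by Prdx1, a cytosolic enzyme. It was at 1249, 1387, 1422 and 1370 CPM in OCsCtr, at 2089, 1808, 2180 and 2115 CPM in OCsEo and at 1826, 1639, 1804 and 1749 CPM in OCsEoS. All stimulated libraries lay above OCsCtr. Prdx1 was upregulated 1.51-fold with eosinophils (log2 0.59, SE 0.06, adjusted p = 2.9e-07), and with supernatant it was higher by a log2 value of 0.37 (SE 0.06, adjusted p = 8.1e-05), under the fold threshold. Of its 50-base words, 8.29% also occur in transcripts of other genes. Gm21399, which shares the most, stood at 6.85, 10.2 and 8.14 CPM on average in OCsCtr, OCsEo and OCsEoS.

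Prdx4, the peroxiredoxin of the endoplasmic reticulum, was at 129, 133, 129 and 133 CPM in OCsCtr, at 168, 168, 188 and 174 CPM in OCsEo and at 187, 180, 185 and 182 CPM in OCsEoS. The groups did not overlap with OCsCtr, and the log2 fold changes were 0.41 (SE 0.06, adjusted p = 1.5e-05) and 0.48 (SE 0.06, adjusted p = 1.8e-06), both under the fold threshold. Prdx5, found in several compartments, was higher at the adjusted p alone in both comparisons (log2 0.26 and 0.23). Its exons overlap those of Trmt112 on the opposite strand by 19.1%, and Trmt112 had log2 fold changes of 0.35 and 0.33. Prdx6 and sulfiredoxin (Srxn1) were higher at the adjusted p alone with supernatant (log2 0.18 and 0.31). Srxn1 stood at 165 to 198 CPM in OCsCtr, 182 to 228 CPM in OCsEo and 212 to 261 CPM in OCsEoS, and overlapped with OCsCtr in OCsEo only. Prdx2 and the mitochondrial Prdx3 did not pass the test, with log2 fold changes of -0.07 to 0.05 in both comparisons. Of the exon bases of Prdx2, 11.5% overlap Rnaseh2a and Junb on the opposite strand. The log2 fold changes were 0.28 and 0.35 for Rnaseh2a and 0.24 and 0.20 for Junb, and their part in the Prdx2 values was not tested.

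Among the electron donors, glutaredoxin (Glrx), which removes glutathione from proteins, was at 122, 120, 131 and 119 CPM in OCsCtr, at 155, 132, 147 and 152 CPM in OCsEo and at 152, 139, 157 and 162 CPM in OCsEoS. Each stimulated library exceeded each OCsCtr library, with log2 fold changes of 0.25 (SE 0.07, adjusted p = 0.0094) and 0.31 (SE 0.07, adjusted p = 0.0013). Cytosolic thioredoxin Txn1 was at a log2 value of 0.14 with eosinophils (adjusted p = 0.092) and 0.16 with supernatant (adjusted p = 0.047), and mitochondrial Txn2 of -0.00 and -0.05. Park7 (DJ-1), a redox-sensitive protein, had values of 0.15 and 0.01 and did not pass the test.

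Of both superoxide dismutases, Sod1 was higher and Sod2 was lower at the adjusted p in each comparison. Cytosolic Sod1 was at 576, 629, 618 and 595 CPM in OCsCtr, at 670, 674, 772 and 759 CPM in OCsEo and at 715, 716, 744 and 749 CPM in OCsEoS. No stimulated library overlapped with OCsCtr, and the log2 fold changes were 0.25 (SE 0.06, adjusted p = 0.0028) and 0.27 (SE 0.06, adjusted p = 9.1e-04). Mitochondrial Sod2 was at 264 to 319 CPM in OCsCtr, 228 to 277 CPM in OCsEo and 240 to 263 CPM in OCsEoS, with log2 fold changes of -0.21 (SE 0.07, adjusted p = 0.023) and -0.22 (SE 0.07, adjusted p = 0.014). All 4 values stayed under the fold threshold, and 21.0% of the 50-base words of Sod2 also occur in transcripts of other genes. Catalase (Cat), which breaks down hydrogen peroxide in peroxisomes, had log2 fold changes of 0.13 and 0.03 and did not pass the test.

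**Figure D5:**
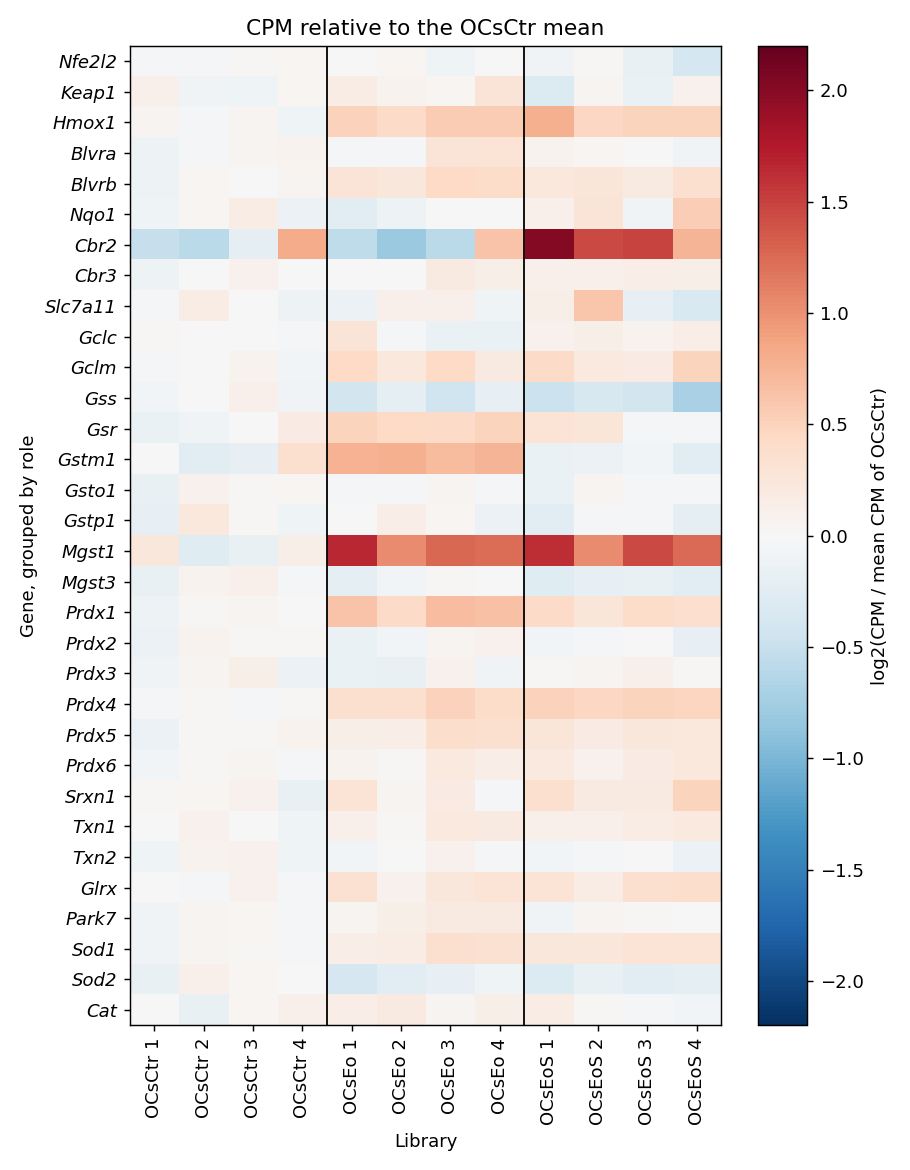
Level of the 32 tested genes in each library as log2 of CPM over the OCsCtr mean (color; red higher, blue lower), with genes grouped by role and vertical lines between the groups. Mgst1 and Hmox1 are red in all 8 stimulated libraries, Gstm1 is red in OCsEo only apart from a weaker OCsCtr library 4, and Cbr2 is red in OCsEoS and in library 4 of OCsCtr and OCsEo.

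Both stimulated groups were also compared directly. Of the 32 genes, only Gstm1 was called, at a log2 fold change of -0.89 in OCsEoS relative to OCsEo (SE 0.12, adjusted p = 1.2e-04). This is 3.12% of members, against 0.278% of all genes called lower with supernatant. No member was called higher, against 0.0585% of all genes, whereas DESeq2 called Cbr2. At the adjusted p alone the counts were also 0 and 1, against 0.146% and 0.519% of all genes. At an unadjusted p under 0.05 there were 3 higher and 6 lower, while 11.2% of all genes passed in either direction. For Cbr2, the OCsEoS libraries (6.24 to 15.0 CPM) lay above all OCsEo libraries (2.10 to 5.72 CPM), with a log2 fold change of 1.72 (SE 0.38, adjusted p = 0.060). It was called without OCsCtr library 4 (1.72, adjusted p = 0.0052) or without OCsEo library 4 (2.14, adjusted p = 0.0021). Gsr was at a log2 value of -0.33 (SE 0.08, adjusted p = 0.054) and Prdx1 at -0.22 (SE 0.06, adjusted p = 0.092), and neither was called. Mgst1 and Hmox1 differed between both stimuli by 0.05 (SE 0.14) and 0.04 (SE 0.08). The median over members was -0.02, against 0.00 over all genes.

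Since OCsEo cultures had held eosinophils, markers of granulocytes are given beside Gstm1. Of 10 eosinophil markers, 5 were tested, and Siglecf and Alox15 were called higher in OCsEo. The median log2 fold change of those tested was -0.01 in OCsEo against OCsCtr. Prg2 was at 3.85 to 7.83 CPM in OCsCtr and 4.21 to 7.25 CPM in OCsEo. In OCsEoS, Prg2 was at 0 to 1.79 CPM and was called lower than in OCsCtr. Ccr3 was at 51.3 to 65.6 CPM in OCsCtr and 45.7 to 53.2 CPM in OCsEo. Alox15 was at 0.104 to 0.653 CPM in OCsCtr, 6.24 to 16.7 CPM in OCsEo and 0.178 to 1.13 CPM in OCsEoS. Epx, the eosinophil peroxidase, had 0 counts in 8 of the 12 libraries and reached at most 0.479 CPM, in OCsEo, and the summed level of the list was 57.1 to 73.7 CPM in OCsCtr, 60.1 to 82.2 CPM in OCsEo and 49.3 to 55.5 CPM in OCsEoS, of which Ccr3 made up most. All 10 neutrophil markers were tested, Elane and Camp were called higher in OCsEo, and Ltf and Ngp were called lower in OCsEoS than in OCsEo. Their summed level was 314 to 457 CPM in OCsCtr, 457 to 611 CPM in OCsEo and 358 to 427 CPM in OCsEoS. No marker of T cells, B cells or erythroid cells was called in any comparison. The part of RNA from granulocytes in the Gstm1, Gsr and Prdx1 levels of OCsEo was not tested.

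Other genes of the same pathways, 61 of them tested in 5 lists, were called at shares near or below those of all genes against OCsCtr. With eosinophils 1 was higher (1.64%, against 3.22%) and 2 were lower (3.28%, against 2.58%). With supernatant 2 were higher (3.28%, against 3.6%) and none was lower (against 4.1%). Between both stimuli, 1 was higher with supernatant (1.64%, against 0.0585%) and none was lower (against 0.278%). Of 10 partners and regulators of NRF2 and 8 enzymes that supply NADPH, all tested, none was called in any of the 3 comparisons, with median log2 fold changes of 0.00 and 0.07 with eosinophils and -0.08 and 0.01 with supernatant. Of 18 further glutathione transferases, 12 were tested, and Gsta3 alone was upregulated, at 3.46 CPM in OCsCtr, 6.92 CPM in OCsEo and 7.06 CPM in OCsEoS on average (log2 1.00, SE 0.21, adjusted p = 0.0015, and 1.03, SE 0.21, adjusted p = 8.7e-04). Among 15 genes of glutathione turnover, cystine and cysteine uptake and conjugate export, 11 were tested. Chac1, which degrades glutathione, was downregulated with eosinophils (log2 -0.52, SE 0.18, adjusted p = 0.045) and was higher with supernatant than with eosinophils (log2 0.79, SE 0.18, adjusted p = 0.035). Ggct, which acts on gamma-glutamyl amino acids, was upregulated with supernatant (log2 1.18, SE 0.33, adjusted p = 0.010) from a mean of 1.76 CPM. Of 21 other thiol and redox enzymes, 20 were tested, and Sesn2, a stress-induced sestrin, was downregulated with eosinophils (log2 -0.93, SE 0.16, adjusted p = 2.0e-04), while with supernatant it was at -0.45 (adjusted p = 0.039).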

How the data were processed

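Bulk RNA-seq. was analysed for 12 libraries of 3 groups with 4 libraries each, mapped to groups by their labels. Per the labels and the methods of the study, reads were cleaned with fastp, aligned with HISAT2 2.0.5 to mm10 (GRCm38) and counted per gene with featureCounts, and the authors deposited raw counts without normalization. The library kit does not mark strand. The annotation release is not given in the sources used here, and the gene length of the table was used as deposited. The table holds no rows without a gene.

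The 33 genes, their roles and all other gene lists were chosen with earlier results of these data known. Analyses used R 4.3.3 with edgeR 4.0.16. Genes were filtered with filterByExpr (minimum count 10), libraries were scaled by TMM, and 1 robust quasi-likelihood fit of all 12 libraries compared the groups without a replicate block. A call needed a Benjamini-Hochberg adjusted p under 0.05 over all 13681 genes tested and an absolute log2 fold change over 0.5. Each adjusted p of a gene comes from this edgeR test, and each SE belongs to the fitted log2 fold change. The study's methods name DESeq2, which was run as an alternative (version 1.42.0). CPM are counts per 1000000 of the TMM-scaled library of tested genes, and CPM per kb divide by the gene length of the table. Members called in a comparison, or largest in their role, are given in each library, the others by range. Other genes are named only where they were called, are cell type markers, or share exon bases or 50-base words with a member in GENCODE transcripts of GRCm38. The fit was tested on simulated data. All 18 pairs of libraries within a group differed by more than sampling noise (chi-square per degree of freedom 10.3 to 36.9).

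In total 27 alternatives were tried, 12 of them leaving out 1 library each. The fit without the robust option and that without number 4 of every group were chosen after seeing the data.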

Additional observations from a re-analysis of the deposited data

Results flagged for a closer look

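In 4 groups of 4 libraries, 1 library stood far from the other 3 by Dixon's test, of 99 groups of the 33 genes examined, where chance gives about 1 in 20. Hmox1 was at 95.3 CPM in OCsEoS library 1, against 76.1 to 78.2 CPM in the other OCsEoS libraries. Cbr2 was at 5.72 CPM in OCsEo library 4, against 2.10 to 2.51 CPM in the others. Gclc was at 56.5 CPM in OCsCtr library 4, against 59.1 to 59.3 CPM, and Gsto1 was at 201 CPM in OCsEo library 3, against 186 to 189 CPM. Gstm1 differed between both stimuli in the direct comparison, by a log2 fold change of -0.89 in OCsEoS relative to OCsEo.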

How the results depend on the processing

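With no threshold on the fold change, 11 members were higher and 2 lower with eosinophils, and 13 were higher and 3 lower with supernatant. At a log2 fold change over 1, 1 member (Mgst1) was higher with eosinophils and 2 (Cbr2 and Mgst1) with supernatant, and with 0.5 as the null value of the test it was 1 in each comparison with OCsCtr. Under both of these settings 0 members were lower in OCsEoS than in OCsEo. Between both stimuli, 1 member (Cbr2) was called higher with DESeq2, whether fitted to 12 libraries or to 2 groups, edgeR on 2 groups, edgeR without the robust option, number 4 of every group left out, and the replicate block. Leaving out 1 library at a time gave 0 to 1 members lower with supernatant than in OCsCtr (Gss) and 0 to 1 higher than with eosinophils (Cbr2). With the gene length trend taken out, Hmox1 was at 0.44 and 0.48 and lost its call on size in both comparisons, and without number 4 of every group it was at 0.47 with eosinophils, where Gsr became called at 0.51. No called value changed sign, and scaling moved the median of all genes by less than 0.01.

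The deviations of same-numbered libraries correlated by -0.04 to 0.09 over 12 pairs (0 over 0.1). For 36 pairs of other numbers the values were -0.11 to 0.12 (1 over 0.1). Weak correlations cannot tell whether libraries of the same number share a mouse or a batch. With a replicate block, Cbr2 was called in OCsEoS against OCsEo (log2 1.86, adjusted p = 0.021, edgeR), and the counts against OCsCtr were 4 and 3 higher and 0 lower. The depth limits Gsta4, whose levels lie near the floor of 3 counts.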
